A study of Mus musculus with 6 samples.

Results

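The genes that make fatty acids, build them into triglyceride, hold the triglyceride in lipid droplets and release it again were compared in the livers of Dnajb4+/+ and Dnajb4-/- mice. The group held 44 genes named from their place in these pathways and not from their values, although earlier results of these data were known. Of them, 42 had at least 1 probe set with a single gene symbol, out of 18193 genes measured in that way. Acsl1, an acyl-CoA synthetase, and Lipc, hepatic lipase, were not analysed here. Dnajb4 codes for the co-chaperone of the HSP40 family that the labels call HLJ1. The labels give 3 livers of wild-type mice (HLJ1+/+) and 3 of HLJ1 knockout mice, with 1 Affymetrix Mouse Genome 430 2.0 array each. All 6 mice were labelled as male C57BL/6 animals of 6 to 8 weeks with free access to food, and no group received a treatment. How the deletion was made was not given in the sources used here, and the RNA came from whole liver with all its cell types.

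In the liver, carbon from sugar is turned into fatty acids by a short chain of cytosolic enzymes that SREBP-1c, the product of Srebf1, switches on after feeding. Fatty acids made there or taken from the blood are activated to acyl-CoA, esterified in steps to triglyceride, and either stored in droplets coated by perilipins and CIDE proteins or loaded onto very low density lipoprotein. Lipases release the stored fatty acids, and their balance with the esterifying enzymes sets how much fat a hepatocyte holds.

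Several facts of the 6 arrays bear on every value below. Each value is a hybridisation intensity on a linear scale, averaged over the probe sets of a gene on the log2 scale, and differences are Dnajb4-/- minus Dnajb4+/+ on the log2 scale. The brightest Dnajb4 probe set gave 589 ± 23.5 (SD, n = 3) in the Dnajb4+/+ and 466 ± 13.6 in the Dnajb4-/- livers, so its signal was lowered but kept. The other probe sets gave means of 111.9 and 108.1, and of 38.9 and 38.1, and the part of the transcript that each reads was not known. Against the male labels, Xist RNA, which marks female cells, lay at 364 to 402 on the 3 Dnajb4+/+ arrays and at 14.3 to 17.1 on the Dnajb4-/- arrays. Genes of the Y chromosome (Eif2s3y, Kdm5d, Uty) reached 77.8% to 102% of their Dnajb4-/- mean in the Dnajb4+/+ livers. The Dnajb4+/+ and Dnajb4-/- means were 68.7 and 79.5 for Eif2s3y, 25.5 and 25.8 for Kdm5d, and 20.2 and 24.3 for Uty. Kdm5d and Uty lay below the median signal of all genes, 43.5. All 3 Dnajb4+/+ arrays carried the Xist signal, so none could be left out for it. Its part in any difference cannot be told apart from that of the genotype. Whether each of these arrays read RNA of 1 mouse, as labelled, was not settled. RNA breakdown raises the 3′ over the 5′ signal of control transcripts. This ratio for Gapdh was 1.17 ± 0.0134 in the Dnajb4+/+ and 1.45 ± 0.0265 in the Dnajb4-/- arrays (SD, n = 3 each). For Actb it was 2.65 ± 0.0485 and 3.17 ± 0.0602. Both ratios were thus higher in the Dnajb4-/- arrays, and the part of this in the values below was not tested. Albumin, transthyretin and apolipoprotein A-I, which mark hepatocytes, had log2 differences of -0.03, 0.017 and -0.016 and did not pass the test. Of 12 hepatocyte markers measured, 1 was higher (Apob, 0.42), 1 was lower (Tat, -0.42) and 10 were not called, with 8 of the 12 means lower in Dnajb4-/- livers. In RNA from whole liver, fewer cells of a type and less RNA per cell cannot be told apart.

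Of the 42 genes, 16 were lower and 5 were higher in the Dnajb4-/- livers at an adjusted p under 0.05 with limma. The share called was 50.0%, beside 14.7% of all genes in either direction, 5.09% higher and 9.57% lower. Most of these genes are well expressed in liver, and 34 of them lay above the median signal of all genes. Among these 34, 5 were higher and 14 were lower, a share of 55.9%, where 23.6% of all genes above that median were called, 7.10% higher and 16.5% lower. The median difference of the 42 genes was -0.08 on the log2 scale, against 0.0075 over all genes. The arrays of the genotypes did not overlap for 30 of the 42 genes, or 71.4%, where this held for 35.5% of all genes. Centring the arrays on their brighter probe sets left the count of calls in the group close to this, with 7 higher and 14 lower, although it moved the calls over all genes from 926 higher and 1741 lower to 1381 higher and 1460 lower.

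The differences were modest beside their number. The called genes differed by 0.17 to 0.53 on the log2 scale with a median size of 0.26, close to the median of 0.27 over all called genes, and 0 of the 42 reached a 2-fold change. A size of at least 0.3 was reached by 10 of the 42, where 6.22% of all genes were called at that size. These were Fabp5, Lpl, Agpat2 and Acsl4, which were higher, and Dgat2, Fabp2, Srebf1, G0s2, Lpin2 and Plin4, which were lower. The median coefficient of variation of a gene within a genotype was 1.98% on the linear scale.

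**Figure D1:**
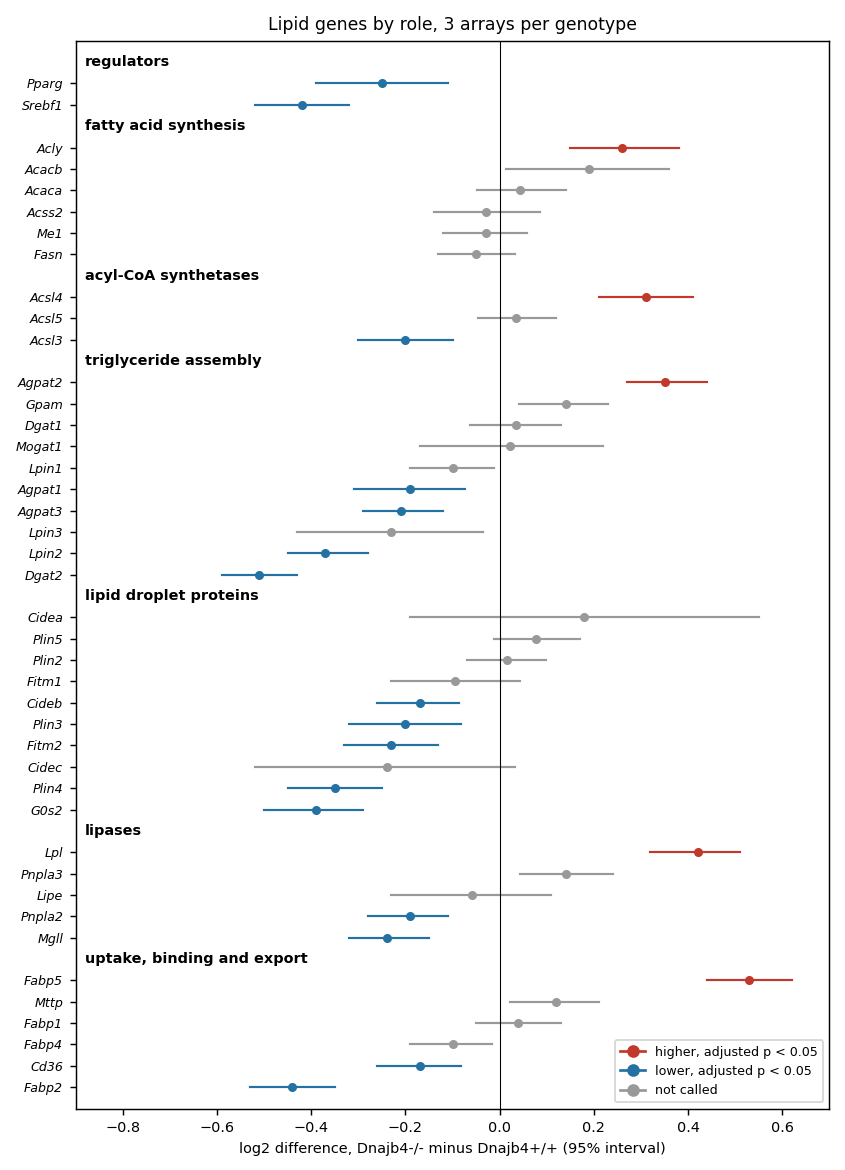
Log2 difference (Dnajb4-/- minus Dnajb4+/+, horizontal axis) of each of the 42 genes, grouped by role, with bars for the 95% interval of the fit and colours for genes called higher, called lower or not called (n = 3 arrays a genotype). The reader should see that both regulators and 5 of the 10 lipid droplet genes lie on the lower side with a call, while 5 of the 6 fatty acid synthesis genes have intervals that reach or nearly reach 0.

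The starts of 6 of the called genes are shown first, because their transcript levels moved in both directions and their upstream windows can be read side by side. Each line holds the 250 bases before an annotated start, 5′ to 3′ on the strand of the gene, from RefSeq with the assembly GRCm38.p6. Capitals mark letters that match a searched motif on either strand. These motifs were CCAAT (the CCAAT box, bound by NF-Y), CACGTG (an E-box, bound by USF and related factors), AGGTCA (the core that nuclear receptors such as the PPARs read), TCACNCCAC (a sterol response element) and the direct repeat of the AGGTCA core with a 1-base spacer. The repeat holds the core motif within it, and no other pair of these motifs shares letters by construction. The windows lie at chr11:60210472-60210721 (minus strand, 1 of 3 Srebf1 starts), chr17:71183282-71183531 (plus, 1 of 3 Lpin2 starts), chr17:56109783-56110032 (minus, Plin4), chr3:122894822-122895071 (plus, Fabp2), chr11:100528001-100528250 (minus, Acly) and chr2:26604418-26604667 (minus, Agpat2).
Srebf1: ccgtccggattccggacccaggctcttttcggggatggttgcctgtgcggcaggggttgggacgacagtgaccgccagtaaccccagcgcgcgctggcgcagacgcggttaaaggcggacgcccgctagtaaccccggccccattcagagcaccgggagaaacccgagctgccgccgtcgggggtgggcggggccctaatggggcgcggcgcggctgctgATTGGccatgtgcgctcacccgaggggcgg
Lpin2: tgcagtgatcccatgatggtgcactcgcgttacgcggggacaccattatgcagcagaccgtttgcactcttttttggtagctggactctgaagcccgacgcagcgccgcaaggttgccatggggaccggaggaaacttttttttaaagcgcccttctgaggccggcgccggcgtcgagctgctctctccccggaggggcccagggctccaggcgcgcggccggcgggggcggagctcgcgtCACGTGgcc
Plin4: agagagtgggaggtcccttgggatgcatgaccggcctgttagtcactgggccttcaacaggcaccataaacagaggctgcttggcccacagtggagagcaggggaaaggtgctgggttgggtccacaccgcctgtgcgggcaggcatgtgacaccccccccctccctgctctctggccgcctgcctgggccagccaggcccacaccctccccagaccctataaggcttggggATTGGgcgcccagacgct
Fabp2: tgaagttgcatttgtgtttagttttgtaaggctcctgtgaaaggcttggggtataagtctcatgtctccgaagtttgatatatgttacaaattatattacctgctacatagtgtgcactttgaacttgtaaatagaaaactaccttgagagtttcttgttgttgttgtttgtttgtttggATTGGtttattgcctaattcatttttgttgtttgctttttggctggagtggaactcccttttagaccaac
Acly: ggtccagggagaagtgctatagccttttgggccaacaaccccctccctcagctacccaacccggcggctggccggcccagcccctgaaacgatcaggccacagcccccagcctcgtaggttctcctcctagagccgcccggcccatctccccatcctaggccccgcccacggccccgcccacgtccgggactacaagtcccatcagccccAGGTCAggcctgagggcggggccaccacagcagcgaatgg
Agpat2: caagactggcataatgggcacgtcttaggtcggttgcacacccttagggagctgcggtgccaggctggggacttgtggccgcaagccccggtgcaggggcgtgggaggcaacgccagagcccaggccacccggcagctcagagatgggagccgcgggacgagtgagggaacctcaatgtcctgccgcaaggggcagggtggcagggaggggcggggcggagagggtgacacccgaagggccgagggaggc

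Srebf1, Plin4 and Fabp2 carried a CCAAT box in the windows shown, and Lpin2 carried an E-box close to its start. Acly carried the nuclear receptor core, and the Agpat2 window held none of the searched letters. The windows of G0s2 and Acsl4, and a further start each of Srebf1 and Lpin2, were not printed and held none either. Promoters were found for 36 of the 42 genes, with 50 windows in all. Of these 50, 20 (40%) held CCAAT, where 33.8% of all 32851 promoters did. The E-box stood in 3 (6%), those of Lipe, Lpin2 and Mgll, against 6.02% of all promoters. The nuclear receptor core stood in 10 (20%) against 14.0%. The sterol response element stood in 0 of 50 and in 1.05% of all promoters, and the direct repeat in 0 of 50 and in 0.0335%. Both are so rare among all promoters that their absence from 50 windows says little. Only the letters given were searched, so other forms of these sites, or sites outside the windows, would be missed. Among the called genes, the CCAAT box was found upstream of Acsl3, Agpat1, Cd36, Fabp2, Lpin2, Plin3, Plin4, Pparg and Srebf1, all of which were lower. It also stood upstream of Acacb, Acsl5, Acss2, Fasn, Gpam, Me1, Plin2, Plin5 and Pnpla3, which were not called. Of the 21 called genes, 16 were lower and 5 higher, and of the higher ones Lpl and Fabp5 had no promoter to search. A link between motif and direction was not tested. The core was found upstream of Acly, which was higher, and of Agpat1, Cd36 and Pparg, which were lower. Lpl, Fabp5, Dgat1, Dgat2, Fabp4 and Cidea had no promoter entry.

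Both regulators in the group were lower in the Dnajb4-/- livers. Srebf1, the transcription factor gene that drives fatty acid synthesis, measured 1249, 1203 and 1282 on the Dnajb4+/+ arrays and 910.1, 938 and 944 on the Dnajb4-/- arrays. The 3 Dnajb4-/- values lay together below every Dnajb4+/+ value. The means were 1245 ± 39.5 and 931 ± 17.9 (SD, n = 3 each), a log2 difference of -0.42 with a standard error of 0.041 (adjusted p = 0.00105). Pparg, the nuclear receptor that favours fat storage and is low in normal liver, measured 89.1, 94.3 and 86.2 in Dnajb4+/+ and 73.3, 81.2 and 72.2 in Dnajb4-/- livers. The groups did not overlap, but the highest Dnajb4-/- value came close to the lowest Dnajb4+/+ value. Its log2 difference was -0.25 ± 0.06 (SE, adjusted p = 0.0351), and the call was lost when any array but the second Dnajb4-/- array was left out, with adjusted p values from 0.0587 (without Dnajb4+/+ replicate 3) to 0.105 (without Dnajb4-/- replicate 1). It was also lost with quantile normalization (adjusted p = 0.0655), with centring on the brighter probe sets (0.0578) and with the gene-by-gene test named in the methods (0.103).

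Of the 6 enzymes of fatty acid synthesis, 5 did not pass the test. Fasn, the fatty acid synthase, measured 815 ± 8.80 in Dnajb4+/+ and 786 ± 7.23 in Dnajb4-/- livers, a log2 difference of -0.05 with a 95% interval from -0.13 to 0.032 (adjusted p = 0.389). Acaca, the cytosolic acetyl-CoA carboxylase, differed by 0.044 (-0.048 to 0.14), and Me1, the malic enzyme that supplies NADPH, by -0.03 (-0.12 to 0.059). The intervals of these 3 genes do not include the Srebf1 difference of -0.42. Acacb, the carboxylase at the mitochondrial surface that makes the malonyl-CoA which restrains fatty acid oxidation, differed by 0.19 with a wide interval (0.014 to 0.36, adjusted p = 0.143).

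Acly, the ATP citrate lyase that supplies cytosolic acetyl-CoA, was the gene of this class that rose. It measured 111.9, 113 and 116 in Dnajb4+/+ and 143, 137 and 129 in Dnajb4-/- livers. The groups did not overlap, with a wider spread in the Dnajb4-/- livers. The log2 difference was 0.26 ± 0.048 (SE, adjusted p = 0.0135). Its 6 probe sets were uneven. The pair of brightest ones went from 2486 to 3546 (0.51) and from 2367 to 2854 (0.27), both called higher. One that went from 485 to 537 (0.15) was not called. The rest lay below 16.6, the lower quartile of gene signal. Of these, the ones that went from 4.78 to 5.71 (0.25) and from 10.7 to 14.9 (0.47) were called higher. The least changed one, at 14.8 and 14.1, had a difference of -0.08 (adjusted p = 0.698). The call was lost without the probe sets that the platform marks as shared or cross-hybridising (0.11, adjusted p = 0.18) and without Dnajb4+/+ replicate 1 (0.25, adjusted p = 0.0545).

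Acss2, the acetyl-CoA synthetase that turns acetate into acetyl-CoA, had a log2 difference of -0.03 (-0.14 to 0.085) that hid opposite signals. Of its 3 probe sets, one went from 1835 ± 16.9 to 2310 ± 72.2 (0.33, adjusted p = 0.00497), one stood at 1725 ± 14.3 and 1726 ± 36.3, and one of low signal went from 31.4 ± 3.43 to 23.5 ± 2.17 (-0.42, adjusted p = 0.0404). It was the 1 gene of the group with probe sets called in opposite directions.

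The 3 acyl-CoA synthetases went 3 ways. These enzymes couple free fatty acids to coenzyme A and so commit them to esterification or oxidation. Acsl4, which prefers arachidonic acid, measured 225, 226 and 225 in Dnajb4+/+ and 268, 289.6 and 278 in Dnajb4-/- livers. Every Dnajb4-/- array lay far outside the narrow Dnajb4+/+ range, and the log2 difference was 0.31 ± 0.042 (SE, adjusted p = 0.00404). Acsl3, which sits on forming lipid droplets, went from 40.6 to 35.4 (-0.20, adjusted p = 0.0211), a call lost without 5 of the 6 arrays (adjusted p up to 0.0787, without Dnajb4+/+ replicate 1, and 0.0507 to 0.0708 for the other 4). Acsl5 was at 2475 ± 17.6 and 2535 ± 18.2 and differed by 0.035 (-0.047 to 0.12).

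The steps that assemble triglyceride held the lowest and one of the highest differences of the group. Dgat2, which with Dgat1 catalyses the last step from diacylglycerol to triglyceride, measured 2833, 2847 and 2899 in Dnajb4+/+ and 1986, 2015 and 2027 in Dnajb4-/- livers. The genotypes lay apart by many times the spread within either. The mean fell by 29.7%, from 2860 ± 34.9 to 2009 ± 21.4, with a log2 difference of -0.51 ± 0.036 (SE, adjusted p = 2.31e-04), and both probe sets were called lower (-0.69 and -0.33). Dgat1 differed by 0.035 with an interval from -0.064 to 0.13 (adjusted p = 0.633), which lies wholly above the Dgat2 interval of -0.59 to -0.43.

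Lpin2, a phosphatidate phosphatase of the step before, was also lower. It measured 482, 481 and 497 in Dnajb4+/+ and 374, 379 and 379 in Dnajb4-/- livers. The values of each genotype lay close together and far from those of the other. The log2 difference was -0.37 ± 0.036 (SE, adjusted p = 0.00107), and its 4 probe sets were all called lower, by -0.27 to -0.49. Of its relatives, Lpin1 differed by -0.10 (-0.19 to -0.013, adjusted p = 0.123) and Lpin3 by -0.23 (-0.43 to -0.035, adjusted p = 0.115).

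The acyltransferases that make phosphatidate moved apart from each other. Agpat2, whose loss causes lipodystrophy, measured 2244, 2207 and 2204 in Dnajb4+/+ and 2844, 2795 and 2859 in Dnajb4-/- livers. All 3 Dnajb4-/- values were higher than every Dnajb4+/+ value, with a mean 27.7% above it and a log2 difference of 0.35 ± 0.035 (SE, adjusted p = 0.00114). Agpat3 went the other way, from 334 to 289 (-0.21, adjusted p = 0.0123), and Agpat1 from 68.3 to 59.7 (-0.19, adjusted p = 0.0463). The 95% interval of Agpat2 (0.27 to 0.44) lay on the other side of 0 from those of Agpat3 (-0.29 to -0.12) and Agpat1 (-0.31 to -0.073). The Agpat3 call was lost with its brightest probe set alone (-0.085, adjusted p = 0.307). The Agpat1 call was lost without any array but Dnajb4+/+ replicate 3 (adjusted p from 0.0952, without Dnajb4-/- replicate 3, to 0.129, without Dnajb4-/- replicate 2). Gpam, the mitochondrial acyltransferase of the first step, differed by 0.14 (0.042 to 0.23, adjusted p = 0.0651), and Mogat1, which acylates monoacylglycerol, by 0.022 (-0.17 to 0.22).

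**Figure D2:**
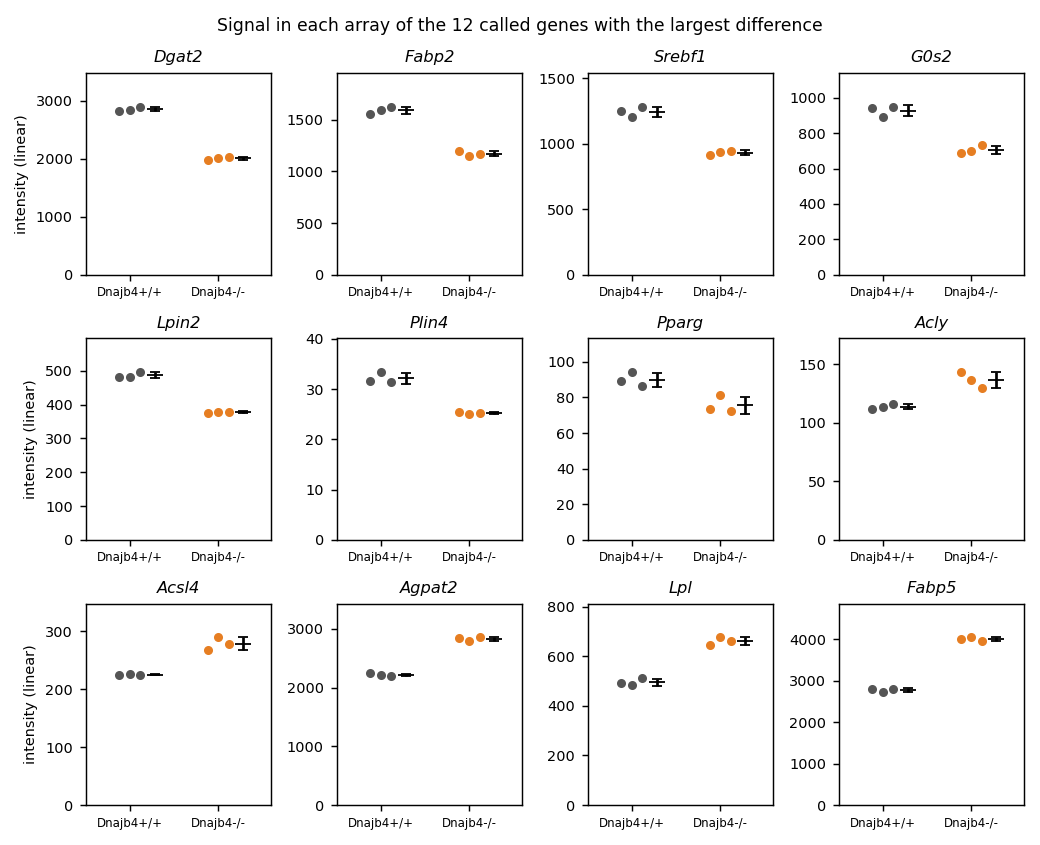
Intensity on each of the 6 arrays (points) for the 12 called genes with the largest differences, with 1 panel a gene, the genotype on the horizontal axis, the mean as a line and the SD as bars. In all 12 panels the 3 Dnajb4-/- points lie wholly above or wholly below the 3 Dnajb4+/+ points, from 32.2 against 25.2 for Plin4 to 2779 against 4010 for Fabp5.

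Among the proteins of the lipid droplet, 5 of 10 genes were lower and 0 were higher with limma. The counts were also 5 and 0 at an unadjusted p under 0.05, and 4 and 0 with the plain gene-by-gene test named in the methods, after Benjamini-Hochberg adjustment. G0s2, the inhibitor of adipose triglyceride lipase, measured 942, 893 and 949 in Dnajb4+/+ and 688, 698 and 732 in Dnajb4-/- livers. The lowest Dnajb4+/+ value was well above the highest Dnajb4-/- value, and the log2 difference was -0.39 ± 0.045 (SE, adjusted p = 0.00182). Plin4, a perilipin that is abundant in adipocytes and low in liver, measured 31.6, 33.4 and 31.5 in Dnajb4+/+ and 25.4, 25 and 25.3 in Dnajb4-/- livers. The Dnajb4-/- values were nearly equal and all lay below the Dnajb4+/+ values, with a log2 difference of -0.35 ± 0.04 (SE, adjusted p = 0.00191). It was read by 1 probe set, whose signal lay below the median of all genes, 43.5.

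The other droplet genes that were called moved less. Fitm2, which partitions triglyceride into droplets, went from 513 to 438 (-0.23, adjusted p = 0.0129, and 0.0541 without Dnajb4+/+ replicate 1). Plin3, a perilipin found in many tissues, went from 402.5 to 351 (-0.20, adjusted p = 0.0386), and Cideb, the CIDE protein of hepatocytes that takes part in lipoprotein lipidation, from 3557 to 3156 (-0.17, adjusted p = 0.0217). Plin3 was no longer called without 5 of the 6 arrays (adjusted p = 0.0865 to 0.109, the highest without Dnajb4+/+ replicate 1), and Cideb without any 1 array (adjusted p = 0.0512 to 0.0743, the highest again without Dnajb4+/+ replicate 1). Plin2, the main droplet coat protein of hepatocytes, which follows their fat content, was at 4944 ± 54.0 and 4995 ± 47.6 and differed by 0.015 (-0.069 to 0.098, adjusted p = 0.822). Plin5, which ties droplets to mitochondria, differed by 0.077 (-0.013 to 0.17), and Fitm1 by -0.09 (-0.23 to 0.044). Cidea and Cidec, which enlarge droplets and are induced in fatty liver, were near the background, with mean intensities of 12.0 and 13.5 for Cidea and 10.8 and 9.17 for Cidec, where the lower quartile of all genes was 16.6.

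Of the lipases, Lpl rose while the intracellular enzymes Mgll and Pnpla2 fell. Lpl, lipoprotein lipase, which frees fatty acids from circulating triglyceride and is low in adult hepatocytes, measured 493, 482 and 511 in Dnajb4+/+ and 645, 677 and 661 in Dnajb4-/- livers. The groups were clearly apart, with a mean 33.4% higher in Dnajb4-/- livers, and both probe sets were called higher (0.40 and 0.43). The log2 difference was 0.42 ± 0.042 (SE, adjusted p = 0.00114). Mgll, the monoacylglycerol lipase of the last step of lipolysis, went from 526 to 447 (-0.24, adjusted p = 0.00701).

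Pnpla2, adipose triglyceride lipase and the enzyme that G0s2 inhibits, went from 99.8 to 87.3 (-0.19, adjusted p = 0.0152, and 0.0609 without Dnajb4+/+ replicate 1). That average joined a probe set that fell from 508 ± 21.2 to 371 ± 12.7 (-0.45, adjusted p = 0.00282) with one of low signal that stood at 19.6 ± 1.17 and 20.6 ± 0.0738. Lipe, hormone-sensitive lipase, had a difference of -0.06 (-0.23 to 0.11), again from a brighter probe set called lower (96.8 to 78.3, -0.31, adjusted p = 0.0147) and a dim one that was not. Pnpla3, a droplet protein under the control of SREBP-1c, differed by 0.14 (0.043 to 0.24, adjusted p = 0.0652).

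The fatty acid binding proteins held the highest difference of the group and the lowest but 1. Fabp5, the epidermal form, measured 2799, 2726 and 2812 in Dnajb4+/+ and 4017, 4054 and 3959 in Dnajb4-/- livers. The genotypes lay apart by many times the range within either. The mean was 44.3% higher, the log2 difference was 0.53 ± 0.036 (SE, adjusted p = 2.15e-04), and both probe sets gave 0.53. Fabp2, the intestinal form, measured 1559, 1597 and 1626 in Dnajb4+/+ and 1194, 1154 and 1172 in Dnajb4-/- livers. Every Dnajb4-/- value was lower, the mean fell by 26.4%, and the log2 difference was -0.44 ± 0.038 (SE, adjusted p = 5.95e-04).

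The liver form, Fabp1, was at 22472 ± 375 and 23084 ± 475 and differed by 0.039 (-0.051 to 0.13), an interval that includes neither of those changes. Fabp4, the adipocyte form, differed by -0.10 (-0.19 to -0.016, adjusted p = 0.113), with 1 of its 4 probe sets called lower (548 to 446, -0.30, adjusted p = 0.0121). Cd36, a fatty acid transporter of the cell surface, went from 118 to 105.0 (-0.17, adjusted p = 0.0261), a call that was lost without any 1 array (adjusted p = 0.0582 to 0.0938, the highest without Dnajb4+/+ replicate 1). Mttp, the microsomal protein that loads triglyceride onto apolipoprotein B, differed by 0.12 (0.022 to 0.21, adjusted p = 0.102).

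The probe sets gave a finer view, since 24 of the 42 genes were read by more than 1 of them. Of 82 probe sets, 14 were called higher, 26 lower and 42 were not called, where 13.5% of all probe sets with a single symbol were called. Of the 12 called genes with more than 1 probe set, 8 had all of them on the same side of 0, and in 4, Dgat2, Lpin2, Lpl and Fabp5, every one passed the test. Besides Acss2, Lipe and Fabp4, the uncalled genes with a called probe set were Plin5 (0.19, adjusted p = 0.0371) and Mttp (0.21, adjusted p = 0.0242). For Acsl4, the brightest of 3 probe sets went from 635 to 964 (0.60), a larger difference than the gene's average. The others moved less, from 173 to 204.5 (0.24, called higher) and from 104 to 110.1 (0.076, adjusted p = 0.65, not called).

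**Figure D3:**
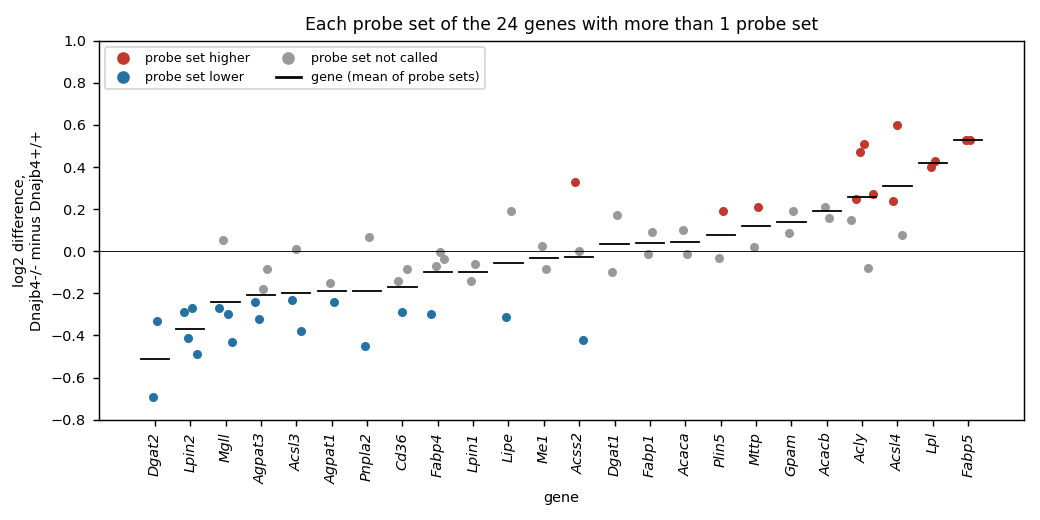
Log2 difference (Dnajb4-/- minus Dnajb4+/+, n = 3 arrays each) of the single probe sets of the genes, for the 24 genes with more than 1 of them, along the horizontal axis, with each point a probe set, its colour the call and a line at the gene's value. The probe sets of Dgat2, Lpin2, Lpl and Fabp5 all lie on one side with a call, while those of Acss2 spread from -0.42 to 0.33.

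Other genes of the same pathways, named by function under 91 symbols, were read in the same way, and 78 were measured. The symbols Agpat6, Agpat9, Ppap2a and Ppap2b are older names of genes also listed as Gpat4, Gpat3, Plpp1 and Plpp3. Of these 78, 23 were lower, 8 were higher and 47 were not called, a share of 39.7% with a median difference of -0.05. The lowest was Gpat3, the acyltransferase of the first esterification step in the endoplasmic reticulum, at 142 ± 7.29 and 59.6 ± 4.76 (-1.26, adjusted p = 7.6e-05). Lipg, endothelial lipase, followed at 84.9 and 41.5 (-1.03, adjusted p = 4.1e-05). Angptl8, an insulin-induced inhibitor of lipoprotein lipase, went from 408 ± 22.4 to 228 ± 8.86 (-0.84, adjusted p = 1.68e-04). These 3 genes moved further than any of the 42.

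Mid1ip1, which activates acetyl-CoA carboxylase, went from 1011 to 734.5 (-0.46, adjusted p = 8.8e-04), and its relative Thrsp, a target of SREBP-1c, had a difference of -0.31. Tm6sf2, which takes part in lipoprotein secretion, went from 526 to 362 (-0.54, adjusted p = 8.74e-04), and Fabp7, the brain form of the binding protein, from 114 to 80.4 (-0.50, adjusted p = 0.00864). Insig2, which holds SREBP precursors in the endoplasmic reticulum, was higher at 2813 and 3944 (0.49, adjusted p = 3.22e-04), while Insig1, Scap and Mlxipl differed by 0.037, -0.05 and -0.05 and were not called.

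Apob, the protein of very low density lipoprotein, was higher at 1860 ± 46.6 and 2494 ± 66.8 (0.42, adjusted p = 9.95e-04). Abhd5, the activator of adipose triglyceride lipase, was higher at 86.0 and 110.2 (0.36, adjusted p = 0.00199), so the transcripts of the enzyme and of its inhibitor G0s2 were lower and that of its activator higher. Pnpla7, a lysophospholipase, was higher by 0.29 and Angptl4, another inhibitor of lipoprotein lipase, by 0.23 (adjusted p = 0.00961). Acss1, the mitochondrial acetyl-CoA synthetase, differed by 0.17 (adjusted p = 0.0493) near the background.

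**Figure D4:**
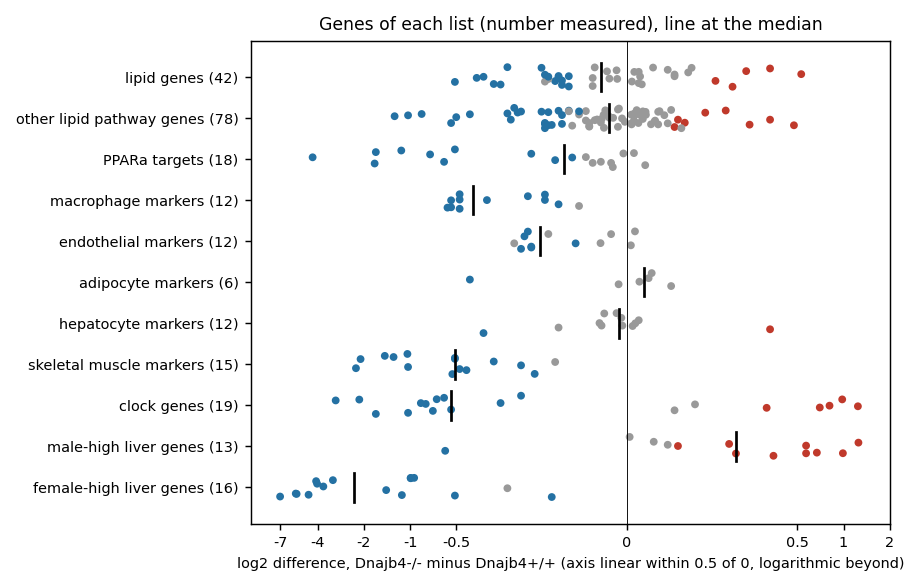
Log2 differences (Dnajb4-/- minus Dnajb4+/+, horizontal axis, linear within 0.5 of 0 and logarithmic beyond) of the 42 genes, of the other pathway genes and of the marker and state lists, with 1 point a gene, its colour the call (red higher, blue lower, grey not called) and a black line at the median. The 42 genes and the 78 other pathway genes have medians of -0.08 and -0.05, and the female-high list stands at a median of -2.31.

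Several other lists of genes differed between the same arrays. Adipocyte markers, which would accompany fat tissue left on the liver, were low, with a summed level of 133 to 145 in Dnajb4+/+ and 135 to 142 in Dnajb4-/- livers. Of the 6 measured, 1 was called, Adipoq, the adiponectin gene, at 19.8 and 14.4, and 3 were near the background. The ranges of the sums overlapped, but Retn alone had means of 60.8 and 63.6 and so made up much of them. The part of adipocytes in the values of Plin4 and Fabp4 was not tested. Macrophage markers were lower for 11 of 12 genes, with sums of 6886 to 7278 in Dnajb4+/+ and 5256 to 5538 in Dnajb4-/- livers, and endothelial markers for 6 of 12, with sums of 2324 to 2443 and 2070.1 to 2176. With the gene-by-gene test after adjustment the lower counts were 9 macrophage and 2 endothelial markers. Lpl, Lipg, Cd36, Fabp4 and Fabp5 are also expressed in these cells, and the part of the cell types in their values was not tested. Skeletal muscle genes, from a tissue that also holds Lpl and Plin4, were lower for 14 of 15, with sums of 919 to 984 and 466 to 487, and their part was not tested.

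The lists that describe the state of the liver differed further. Genes with higher expression in female liver were lower in Dnajb4-/- livers for 15 of 16, with sums of 8155 to 8569 in Dnajb4+/+ and 488 to 517 in Dnajb4-/- livers, and genes with higher expression in male liver were higher for 9 of 13 and lower for 1. With the Xist values above, the part of sex in the lipid genes cannot be told apart from that of the genotype. Of 19 genes of the circadian clock and its output, 12 were lower and 5 higher. The largest falls were those of Dbp, from 1722 ± 21.6 to 208 ± 8.76 (-3.05), and Usp2 (-2.14). The largest rises were those of Arntl, from 41.1 ± 0.798 to 97.1 ± 4.95 (1.24), and Nfil3 (0.98). Each of these genes moved further than any of the 42 lipid genes. Of 18 target genes of PPARα, the receptor that turns on fatty acid oxidation in fasting, 10 were lower and 0 were higher with limma, and the counts were 12 and 0 at an unadjusted p under 0.05 and also with that gene-by-gene test after adjustment. Cyp4a14 among them went from 2040 ± 68.3 to 103 ± 6.05 (-4.31), far below the list median of -0.18, and Vnn1 followed at -1.7. Not called with limma were 8, among them Cpt1a (-0.076), Pdk4 (-0.041) and Fgf21 (0.054). The time of collection and the feeding of single mice were not given in the sources used here. Their part was not tested, whether in the clock genes, in Srebf1, Pnpla3, Insig2 and others that follow meals, or in the remaining genes.

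Of the 21 genes of the group that were not called, 17 had a 95% interval within ±0.3 on the log2 scale and 11 within ±0.2. Of the 21 that were called, 11 kept the call in every one of up to 16 alternative settings that tested them. These were Srebf1, Acsl4, Agpat2, Lpin2, Dgat2, Plin4, G0s2, Mgll, Lpl, Fabp2 and Fabp5, and 0 of the 21 changed direction in any of them. The 16 left out the size limit of 0.3, which Mgll does not reach. The 10 other called genes lost the call under at least 1 setting, given above where a single array decided it.

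**Figure D5:**
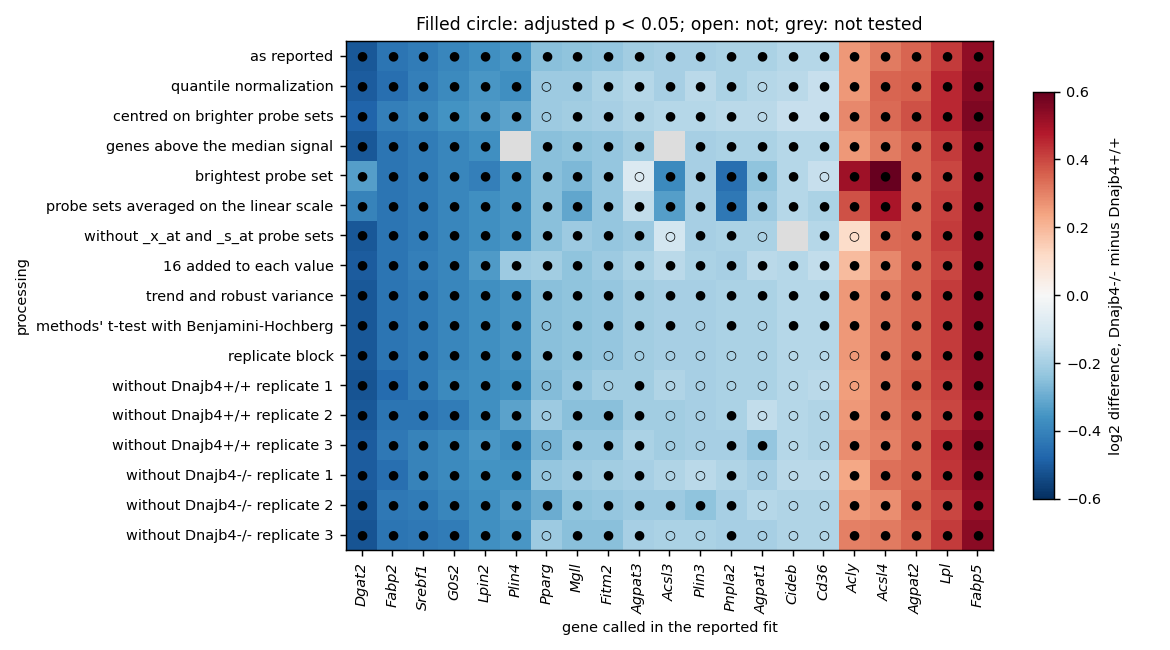
Log2 difference (colour, Dnajb4-/- minus Dnajb4+/+) of the 21 called genes (columns) as reported and under 16 alternatives (rows), with a filled circle where the adjusted p was under 0.05, an open one where it was not and grey where the gene was not tested. The columns of Dgat2, Fabp2, Srebf1, G0s2, Lpin2, Mgll, Acsl4, Agpat2, Lpl and Fabp5 are filled throughout, and Plin4 wherever it was tested, while open circles gather at the lower genes with small differences and at Acly.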

How the data were processed

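Total RNA from 6 livers was hybridised to Affymetrix Mouse Genome 430 2.0 arrays. The authors deposited linear intensities made with GCRMA and centred to a common median (31.8 to 32.5 as measured). They were taken to log2. Of 45101 probe sets, 64 controls were left out, 34958 had 1 symbol, 932 several and 9211 none, and 34945 were averaged into 18193 genes, so probe sets that disagree dilute each other. The arrays held 0 columns of other samples. Differences were fitted with limma 3.58.1 (lmFit, eBayes) in R 4.3.3 on 3 against 3 arrays without covariates, adjusted over all genes by Benjamini-Hochberg and called at 0.05. The scripts were tested on simulated data, and figures were drawn with matplotlib 3.10.9. The number of arrays limits the precision, and p-values measure the spread between these arrays. Arrays of a genotype correlated at r = 0.9981 to 0.9985 in Dnajb4+/+ and at 0.9982 to 0.9985 in Dnajb4-/- livers. Each array was labelled as 1 mouse, which was not settled for the Dnajb4+/+ arrays and not tested for the Dnajb4-/- arrays. Whether the spread between arrays is that between mice was thus not known for either genotype.

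The members, lists and tests were chosen with earlier results of these data known. All measured members are named. Array values are given for the 12 called members with the largest differences, and the 6 largest called genes in each direction are named among other pathway genes. Thrsp, Insig1, Scap and Mlxipl were named after their values were seen. Alternatives were quantile normalization, centring on brighter probe sets, genes above the median signal, the brightest probe set, averaging on the linear scale, leaving out shared probe sets, adding 16, trended variance, the methods' t-test, a size of at least 0.3, a replicate block and leaving out each array. The window table is RefSeq GRCm38.p6.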

Additional observations from a re-analysis of the deposited data

How the results depend on the processing

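The higher count of the 42 genes, 5, was 9 with the brightest probe set or with linear averaging, 8 with 16 added, and 10 with the methods' t-test without adjustment, which called 19 lower (5 and 14 after Benjamini-Hochberg). The lower count of 16 was 6 with a size of at least 0.3 and 8 with the replicate number as a block. Leaving out 1 array gave 4 to 5 higher and 8 to 13 lower (8 without Dnajb4+/+ replicate 1, 10 without Dnajb4+/+ replicate 2 or Dnajb4-/- replicates 1 or 3). Of the other pathway genes, 16 were higher with the t-test without adjustment, 5 with the block, 3 with the size limit and 5 to 6 without 1 array (main 8). The lower count of 23 was 11 with the size limit and 16 to 19 without 1 array. Same-numbered arrays did not deviate together (r = -0.0212, -0.141 and 0.00907). The numbers thus gave no sign of pairing, which this check on few arrays cannot exclude. The block changed the calls of Acly, Acsl3, Agpat1, Agpat3, Plin3, Cideb, Fitm2, Pnpla2 and Cd36. None of the 21 called genes changed direction under any of these settings, and the uncalled genes Acacb, Acss2, Gpam, Lpin1, Plin5, Pnpla3, Lipe, Fabp4 and Mttp passed in at least 1 of 16 alternatives. Quantile normalization and bright centring ended the calls of Pparg (adjusted p = 0.0655 and 0.0578) and Agpat1 (0.0734 and 0.113), and the methods' t-test after adjustment those of Pparg (0.103), Agpat1 (0.0978) and Plin3 (0.0839). Leaving out shared probe sets ended those of Acly, Acsl3 (-0.11, adjusted p = 0.174) and Agpat1 (0.0504), and the brightest probe set those of Agpat3 and Cd36 (0.0503). The uncalled genes that changed sign under a setting were Acaca (-0.014 with the brightest probe set, -0.0063 averaged linearly), Acss2 (0.33, 0.18, 0.023 with 16 added and 0.0014 with bright centring), Dgat1 (-0.10 and -0.081), Fabp1 (-0.013 with the brightest probe set), Plin5 (-0.034 without shared probe sets), Mogat1 (-0.03 to 0.12 without 1 array) and Lipe (-0.12 to 0.0095 without 1 array). The cause was not tested beyond the single probe sets given. Low signal limits Cidea, Cidec and Acss1.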
